A study of Mus musculus with 8 samples.

Results

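The transfer RNA (tRNA) genes of the mouse were examined for binding of the chromatin remodelers Chd7 and Chd8. Every RefSeq gene of biotype tRNA on chromosomes 1 to 19 and X of the mouse genome (mm10) was taken, with 500 bp on both sides, which gave 403 windows among 49209 RefSeq genes placed on the same chromosomes. Another tRNA gene lay within 10 kb of 293 of them (clustered genes), and 110 stood alone (single genes). A tRNA gene counted as having a peak when a peak of the authors' list touched its window by at least 1 bp.

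The samples were O4-positive cells sorted magnetically from the cortex and corpus callosum of wild-type mice at postnatal day 7, which the labels call OPC, the usual abbreviation for oligodendrocyte precursor cells. Chromatin immunoprecipitation with an antibody to Chd7 gave 2 libraries and with an antibody to Chd8 gave 1. Rabbit IgG gave 2 mock libraries, 1 of them shared by Chd7 replicate 2 and Chd8, and 3 inputs were each assigned to 1 ChIP. No group carried a mutation or a treatment, the sources used here do not state if the replicates were separate animals, and the Chd8 data have no replicate.

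Transfer RNAs carry amino acids to the ribosome, and each gene is named here by its amino acid and by the anticodon that reads the codon. RNA polymerase III transcribes them from a promoter that lies inside the gene, where the factor TFIIIC binds the A box and the B box and brings in TFIIIB. Chd7 and Chd8 use ATP to move nucleosomes, and both are known for their roles in the oligodendrocyte lineage. In human cells, CHD8 has been described at a promoter of RNA polymerase III.

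The peak lists held 5257 peaks on these chromosomes in Chd7 replicate 1, 6279 in Chd7 replicate 2 and 18393 in Chd8, against 79 and 96 in the mocks and 109436, 178414 and 91588 in the inputs. Sequencing depth is unknown, so neither these numbers nor the fold of a peak over the caller's local background, which is the authors' value, can be compared between libraries. Of 5 marker genes of oligodendrocyte precursors, Olig1, Olig2, Sox10 and Pdgfra had a Chd8 peak within 1 kb of a gene end and Cspg4 had none. Chd7 replicate 2 had a peak at 3 of the 5, Chd7 replicate 1 at 0 and input 3 at 4. Over all protein-coding genes these shares were 41.7% for Chd8, 17.3% and 10.6% for Chd7 replicates 2 and 1, and 46.0% for input 3. The track names inside the files of Chd7 replicate 2 and Chd8 carry other replicate numbers than the titles, and the titles were used. The extraction notes name the O4 antibody for the precipitation, where the labels of each sample name anti-Chd7, anti-Chd8 and IgG, which were used.

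The sequences of tRNA genes themselves were not used here, but 10 promoters of neighbouring genes overlap a tRNA gene and so hold part or all of one. Promoters here run 300 bp around an annotated start, of which a gene can have several, and come from RefSeq (GRCm38.p6). They are shown because the B box core GTTCGANTC can be read in them, where N is any base and both strands were searched. The core was found in 55 of 32851 promoters (0.167%), and in 4 of the 10 that overlap a tRNA gene, all 4 of which follow with the core in capitals (GACTCGAAC and GATTCGAAC are its reverse complements). A match is a description of the letters and not a site.
Polg, chr7:79466224-79466523, minus strand: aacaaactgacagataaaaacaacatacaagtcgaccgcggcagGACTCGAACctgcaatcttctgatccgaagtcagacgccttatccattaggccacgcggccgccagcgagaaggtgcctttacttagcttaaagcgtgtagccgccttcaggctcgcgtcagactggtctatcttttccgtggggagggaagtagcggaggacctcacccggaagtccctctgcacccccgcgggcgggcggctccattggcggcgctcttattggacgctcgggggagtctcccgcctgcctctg
Polr3e, chr7:120917528-120917827, plus strand: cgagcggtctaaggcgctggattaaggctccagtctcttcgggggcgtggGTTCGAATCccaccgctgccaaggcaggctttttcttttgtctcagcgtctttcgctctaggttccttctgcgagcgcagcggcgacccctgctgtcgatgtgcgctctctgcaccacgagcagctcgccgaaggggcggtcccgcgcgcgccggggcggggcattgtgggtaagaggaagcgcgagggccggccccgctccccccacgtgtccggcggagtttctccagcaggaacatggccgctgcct
Gm38989, chr7:35234765-35235064, minus strand: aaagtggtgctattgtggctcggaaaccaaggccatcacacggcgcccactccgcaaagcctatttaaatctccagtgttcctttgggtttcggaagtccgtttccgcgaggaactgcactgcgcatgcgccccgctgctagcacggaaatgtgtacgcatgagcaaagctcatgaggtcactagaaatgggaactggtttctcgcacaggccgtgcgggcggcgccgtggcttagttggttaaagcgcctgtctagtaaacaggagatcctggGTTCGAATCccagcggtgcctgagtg
BC107364, chr3:96452257-96452556, minus strand: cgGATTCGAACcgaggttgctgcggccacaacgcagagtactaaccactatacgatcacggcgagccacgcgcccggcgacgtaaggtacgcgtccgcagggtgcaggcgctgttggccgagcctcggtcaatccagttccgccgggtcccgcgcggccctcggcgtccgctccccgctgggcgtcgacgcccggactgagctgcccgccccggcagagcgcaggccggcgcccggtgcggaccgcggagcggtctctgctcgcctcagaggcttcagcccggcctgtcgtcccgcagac

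The Polg promoter (Polg encodes the catalytic subunit of the mitochondrial DNA polymerase) holds all 73 bases of the arginine tRNA gene n-TRtcg5, and peaks of Chd7 replicate 1, Chd7 replicate 2 and Chd8, and of all 3 inputs, touched it. The Polr3e promoter, which belongs to a subunit gene of RNA polymerase III itself, holds 71 of the 82 bases of the leucine tRNA gene n-TLaag4, and was touched by peaks of Chd7 replicate 2, Chd8 and input 3. The promoter of Gm38989 holds all 74 bases of the threonine tRNA gene n-TTagt9 and was touched by a Chd8 peak alone. The promoter of BC107364 holds 62 of the 72 bases of the histidine tRNA gene n-THgtg7 and was touched by no peak of any library. The core was thus present with and without a peak.

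The promoters of Ndufs7 and Ilf2 are shown for the tRNA genes they adjoin. These are the pair with the highest Chd8 fold and a gene with a peak in both Chd7 libraries. Neither holds the B box core as spelled above.
Ndufs7, chr10:80249199-80249498, plus strand: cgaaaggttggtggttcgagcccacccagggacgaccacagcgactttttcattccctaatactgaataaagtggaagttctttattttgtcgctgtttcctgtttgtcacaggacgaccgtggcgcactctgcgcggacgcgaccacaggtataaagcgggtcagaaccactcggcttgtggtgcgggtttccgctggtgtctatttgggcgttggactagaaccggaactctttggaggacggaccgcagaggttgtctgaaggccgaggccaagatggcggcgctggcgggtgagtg
Ilf2, chr3:90475951-90476250, plus strand: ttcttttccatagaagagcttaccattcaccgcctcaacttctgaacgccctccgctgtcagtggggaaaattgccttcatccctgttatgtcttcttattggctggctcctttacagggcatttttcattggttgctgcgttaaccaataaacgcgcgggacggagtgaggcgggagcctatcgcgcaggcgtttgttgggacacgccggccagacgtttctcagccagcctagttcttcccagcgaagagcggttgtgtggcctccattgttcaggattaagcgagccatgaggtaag

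Chd8 peaks lay at 147 of the 403 tRNA genes (36.5%, exact 95% interval 31.8 to 41.4). Chd7 peaks lay at 32 (7.94%, 5.49 to 11.0) in replicate 1 and at 28 (6.95%, 4.67 to 9.89) in replicate 2. No tRNA gene had a peak in either mock (upper bound 0.911%). The inputs had peaks at 30 (7.44%), 32 (7.94%) and 67 (16.6%, 13.1 to 20.6) tRNA genes, in the order input 1, 2 and 3. Intervals cover counting error over genes only, and neighbouring tRNA genes can share a peak. With peaks of −log10 q of at least 5 alone, 11 tRNA genes had a Chd8 peak and 0 had a Chd7 peak in either replicate. Shares of gene ends and tiles at this threshold are not given here, so the drop cannot be called particular to tRNA genes.

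**Figure D1:**
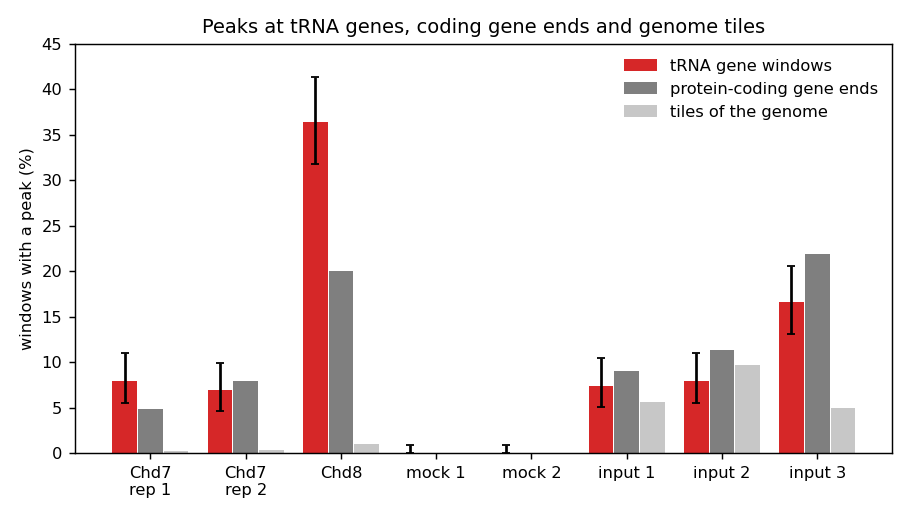
Percentage of windows with a peak in each library, for the 403 tRNA gene windows (red, bars with exact 95% intervals), for windows of the same size at protein-coding gene ends (dark grey) and for tiles of the genome (light grey). Chd8 stands at 36.5% of tRNA windows against 20% of gene ends, while input 3 stands at 16.6% against 21.9%. Gene ends pool the start and the far end of each gene.

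As the background, windows of 1073 bp were set on both ends of every protein-coding gene and tiled over chromosomes 1 to 19 and X. Chd8 peaks lay at 36.5% of tRNA windows, against 20% of gene ends and 1.08% of tiles. With overlapping tRNA windows merged, Chd8 had a peak at 96 of 301 stretches (31.9%). For stretches with 1 gene, which are close to gene end windows in length, it was 58 of 235 (24.7%). Windows at gene ends were not merged. These gene ends pool the start and the far end of each gene, and a share at starts alone is not given here. Counted by gene, 41.7% had a Chd8 peak within 1 kb of either end, which is a wider reach. Chd7 replicate 1 had 7.94% of tRNA windows, against 4.87% of gene ends and 0.277% of tiles. Chd7 replicate 2 had 6.95%, against 7.96% of gene ends and 0.347% of tiles, so its share was no higher than that of gene ends. The mocks had 0 tRNA windows, against 0.00929% and 0.00697% of gene ends and 0.00647% and 0.00530% of tiles. The inputs had shares at tRNA windows below those of gene ends, which were 9.02%, 11.4% and 21.9%, and their tiles stood at 5.65%, 9.69% and 4.96%. Around other RNA genes the Chd8 share was 3.31% for snoRNA, 7.65% for miRNA and 3.51% for snRNA genes, and 6.78% for ends of lncRNA genes; in input 3 the same windows stood at 7.14%, 13.7%, 6.33% and 9.13%.

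The test over libraries did not separate the ChIP libraries from the inputs. The mean share of tRNA genes with a peak was 17.1% over the 3 ChIP libraries and 10.7% over the 3 inputs, a difference of 6.45 percentage points (two-sided exact permutation p = 0.9, smallest possible 0.1). Against the mocks, at 0%, the difference was 17.1 points (two-sided exact permutation p = 0.2, the smallest possible). The mock lists hold only 79 and 96 peaks, so a share near 0% was set by their length. This comparison therefore cannot decide anything about tRNA genes. Neither design can reach 0.05, and the ChIP mean joins 2 proteins.

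Chd8 peaks lay over the tRNA gene itself at most of the genes that had one. A Chd8 peak touched the transcribed part itself at 93 of the 147 genes (63.3%), against 4 of 30 (13.3%), 3 of 32 (9.38%) and 13 of 67 (19.4%) in inputs 1, 2 and 3. For Chd7 it was 11 of 32 (34.4%) in replicate 1 and 8 of 28 (28.6%) in replicate 2. Input peaks in these windows were also narrower, with median widths of 226.5, 208 and 296 bp in inputs 1, 2 and 3, against 546 bp for Chd8, and the part of width in these shares was not tested. The median distance of the peak's centre to the gene's midpoint was 289 bp for Chd8, against 285, 331.5 and 377 bp in inputs 1, 2 and 3. At single genes farther than 1 kb from a protein-coding gene end it was 211.5 bp for Chd8, against 183, 198 and 212 bp, so Chd8 peaks were not centred closer to those genes than input peaks. Chd8 peaks covered the gene's midpoint at 82 of 403 genes (20.3%), and covered the points 500 bp before and after it, in genome orientation, at 63 and 53 genes. At 2000 bp before and after the midpoint Chd8 peaks covered 11 and 8 genes. Input 3 had 6 genes covered at the midpoint and 17 and 22 genes at the same 500 bp points. The median Chd8 width of 546 bp compares with 383 bp over the whole Chd8 list, and the median fold was 4.58 against 4.47.

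**Figure D2:**
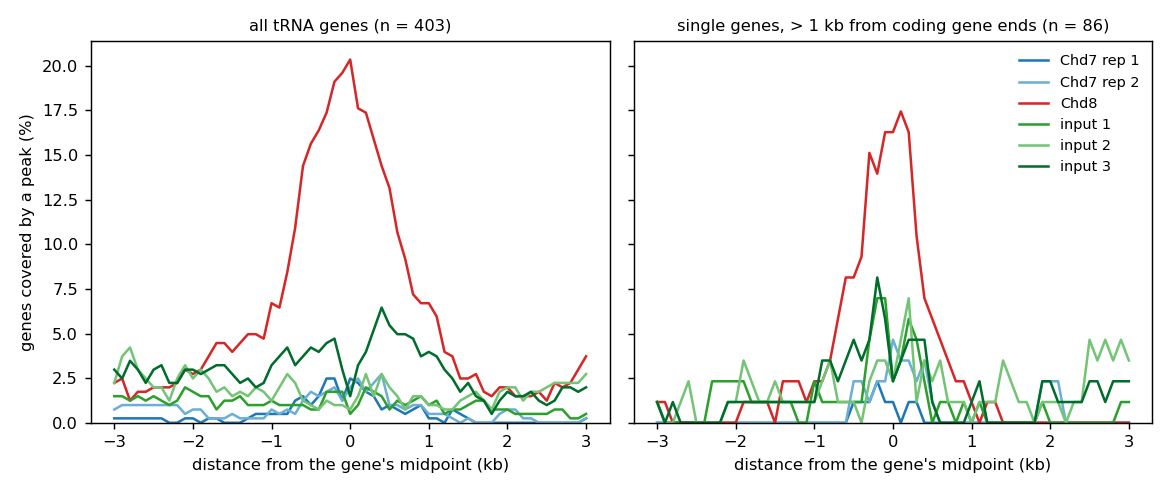
Percentage of tRNA genes covered by a peak at each distance (kb, genome orientation) from the gene's midpoint, for all 403 genes (left) and for the 86 single genes farther than 1 kb from a protein-coding gene end (right). In the left panel the Chd8 line is highest at the midpoint, where it covers 20.3% of genes, and input 3 covers 6 genes there.

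The 2 Chd7 replicates shared few tRNA genes. Only 5 genes (1.24%) had a peak in both, which is 15.6% of the replicate 1 genes and 17.9% of the replicate 2 genes, against 2.47% of gene ends and 0.0815% of tiles with a peak in both. At gene ends, 50.7% of the windows with a replicate 1 peak had a replicate 2 peak, and 31.0% the other way. At 2 of the 5, n-TMcat11 and n-TRtcg5, the peaks of the 2 libraries overlapped each other. Of the 55 tRNA genes with a Chd7 peak in either replicate, 49 (89.1%) also had a Chd8 peak, and these were 33.3% of the Chd8 genes. Of 4461 gene ends with a Chd7 peak in either replicate, 4014 (90.0%) had a Chd8 peak, so the 89.1% at tRNA genes was close to that background. The other way, 4014 of the 8592 gene ends with a Chd8 peak had a Chd7 peak, a larger part than the 33.3% at tRNA genes. The other 6 of the 55 tRNA genes had a Chd7 peak and none of Chd8. Named after their values were seen, they were n-TRtct2, n-TVaac2, n-TAagc7 and n-TVaac5 in replicate 1 and n-TDgtc1 and n-TLtaa3 in replicate 2. Chd8 alone among the ChIP libraries marked 98 tRNA genes, and 250 genes (62.0%) had no ChIP peak. The same counts over gene ends are not given here.

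Inputs also had peaks at many of these genes. Any input had a peak at 92 tRNA genes, and 57 of the 147 Chd8 genes (38.8%) were among them, 52 of them in input 3. With the Chd8 peaks that touch input 3 removed, 89 tRNA genes kept a Chd8 peak, and 130 did with input 2 in its place, as the track names would assign it. By windows, 90 Chd8 genes (22.3% of all tRNA genes) had no peak of any input. Of the 55 Chd7 genes, 23 had no input peak. The matching shares of gene ends are not given here. Of 109 distinct Chd8 peaks in these windows, 39.4% touched a peak of input 3, against 40.5% of the whole Chd8 list. For Chd7 replicate 1 it was 41.7% of 24 peaks, against 34.8% of its list. For Chd7 replicate 2 it was 47.6% of 21 peaks, against 52.9% of its list.

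All 20 amino acids had tRNA genes with a Chd8 peak, and 42 of 48 anticodons did. In either Chd7 replicate 19 amino acids and 31 anticodons had one, and phenylalanine was the amino acid with none. The highest Chd8 shares were those of proline (10 of 16 genes, 62.5%), leucine (15 of 25, 60.0%), arginine (14 of 24, 58.3%) and phenylalanine (4 of 7, 57.1%). Methionine (8 of 16) and tyrosine (5 of 10) followed at 50%. These shares had wide intervals, such as 35.4% to 84.8% for proline and 18.4% to 90.1% for phenylalanine, and neighbours in the order did not differ beyond them. Proline genes also had an input 3 peak at 8 of 16 (50%), whereas histidine genes had a Chd8 peak at 4 of 11 and no input peak at all. At the low end stood valine (6 of 22, 27.3%), glutamine (4 of 16, 25%), asparagine (3 of 13, 23.1%) and cysteine (4 of 57, 7.02%).

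Cysteine was the one amino acid whose interval, 1.95% to 17.0%, lay below the 41.3% of the 346 other tRNA genes. Most cysteine genes are in a repeated array on chromosome 6, where 1 of 47 had a Chd8 peak and none had a Chd7 peak, and inputs 1, 2 and 3 had peaks at 2, 2 and 1 of them. The sources used here do not state how reads aligning to several copies were treated, and its part in this result was not tested. By anticodon, in cases chosen after their values were seen, leucine AAG had Chd8 peaks at 5 of 5 genes, which lie in 4 merged windows. Alanine AGC had 8 of 13 (31.6% to 86.1%) and alanine UGC 1 of 11 (0.23% to 41.3%), with overlapping intervals, and input 3 had 3 of 13 and 0 of 11.

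**Figure D3:**
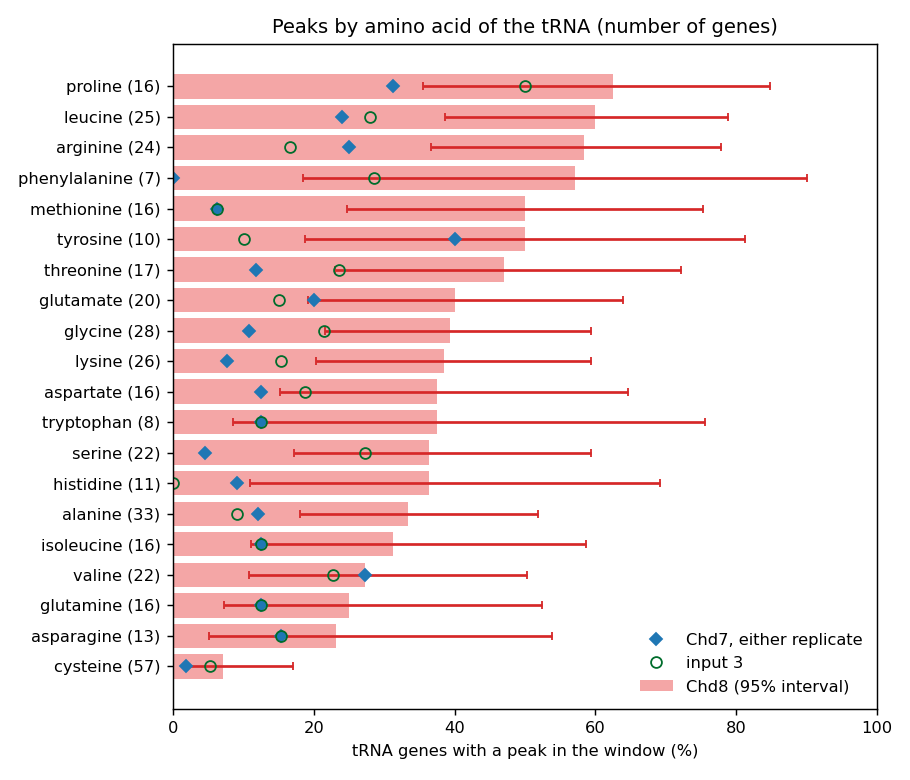
Percentage of tRNA genes with a peak by amino acid, with the number of genes in brackets, for Chd8 (bars with exact 95% intervals), for Chd7 in either replicate (diamonds) and for input 3 (circles). Chd8 shares run between 7.02% for cysteine and 62.5% for proline, and most intervals overlap.

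The Chd8 shares of clustered and single tRNA genes differed by less than their counting error. Chd8 had a peak at 106 of 293 clustered genes (36.2%) and at 41 of 110 single genes (37.3%). In Chd7 the shares were 6.83% of clustered and 10.9% of single genes in replicate 1, and 4.78% and 12.7% in replicate 2. The inputs stood lower in clusters, at 4.44% against 15.5% of single genes in input 1, 3.41% against 20% in input 2 and 11.9% against 29.1% in input 3. Chd8 genes with no input peak were 79 of 293 clustered genes (27%) and 11 of 110 single genes (10%). The Chd8 difference, clustered minus single, was −1.10 percentage points, and 3.88 when clusters were drawn at 5 kb.

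The distance to the next tRNA gene sorted the clustered genes further. Where the gap was up to 1 kb, Chd8 had a peak at 89 of 168 genes (53.0%), and where it was 1 to 10 kb at 17 of 125 (13.6%). Input 3 moved the same way, at 18.5% and 3.20%, so the part of the input signal in this difference was not tested. Outside the cysteine array the Chd8 shares were 88 of 150 (58.7%) and 17 of 96 (17.7%). Windows of genes within 1 kb overlap and can be touched by 1 peak: the 403 windows merge into 301 stretches, of which 66 hold 2 or more genes. Counted once each, 38 of these 66 (57.6%) had a Chd8 peak, against 58 of 235 stretches with 1 gene (24.7%), and in input 3 it was 25.8% against 15.3%. The stretches with 2 or more genes are longer, with a median of 1927 bp against 1072 bp, which by itself gives a peak more room to touch them.

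**Figure D4:**
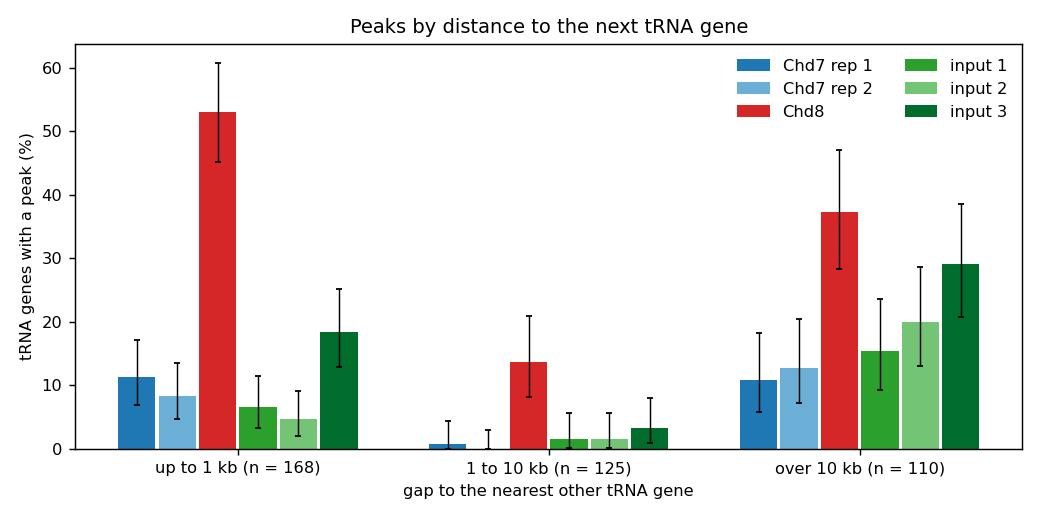
Percentage of tRNA genes with a peak (bars, exact 95% intervals) by the gap to the nearest other tRNA gene, for the ChIP libraries and the inputs. Chd8 stands at 53.0%, 13.6% and 37.3%, and input 3 at 18.5%, 3.20% and 29.1%.

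Of 64 clusters of 2 or more genes, 36 had a Chd8 peak at a member and 16 had a Chd7 peak in either replicate. The 3 largest clusters each had a Chd8 peak at 1 or 2 genes. The largest, 22 cysteine genes at chr6:48244316-48317586, had 1 gene with a Chd8 peak. The 15 genes at chr1:171064164-171081946 had 2, both also with a peak in all 3 inputs, and the 15 genes at chr13:21907111-21940995 had 2 with no input peak. All 9 genes at chr13:21160785-21172942 had a Chd8 peak with no Chd7 or input peak. All 7 genes at chr11:69037003-69041897 had a Chd8 peak, 1 of them also an input 3 peak. These clusters were picked after their values were seen, and their windows merge into 4 and 2 stretches. The 6 genes at chr13:23298781-23317538 and the 6 at chr13:23498106-23506590 had no Chd8 peak. On chromosome 13 as a whole Chd8 had peaks at 34 of 105 tRNA genes (32.4%), 33 of them with no input peak. Over all tRNA genes the Chd8 share was 36.5%. Input peaks were rare at all chromosome 13 genes: any input had one at 5 of 105 (4.76%), against 22.8% of all tRNA genes.

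**Figure D5:**
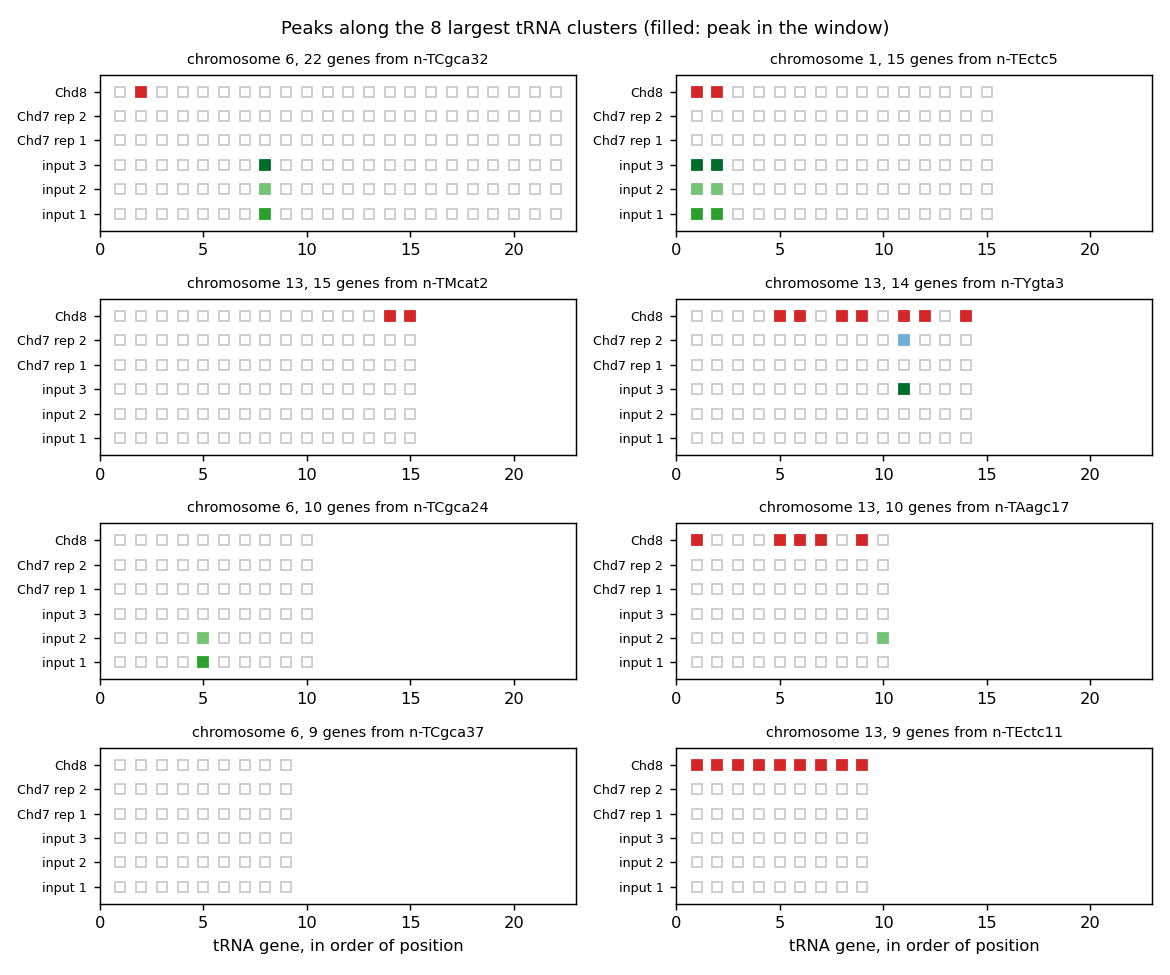
Presence of a peak (filled squares) in the window of each tRNA gene, in order of position, for the 8 largest clusters, with the ChIP libraries above the inputs. The 9 genes of the chromosome 13 cluster that starts with n-TEctc11 all have a Chd8 peak, and the 22 genes of the largest chromosome 6 cluster have 1.

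A subset of tRNA genes lies beside protein-coding genes. Within 1 kb of a protein-coding gene end, 35 of 49 (71.4%) had a Chd8 peak, against 112 of 354 (31.6%) farther away. Input 3 had the same order, with 22 of 49 (44.9%), against 45 of 354 (12.7%). Chd7 replicate 1 had 11 of 49, against 21 of 354, and Chd7 replicate 2 had 8 of 49, against 20 of 354. Single genes farther than 1 kb from a gene end had a Chd8 peak at 22 of 86 (25.6%), and each of the 3 inputs at 15 of 86 (17.4%). Genes inside a promoter can be among them: n-TRtcg5 lies 1420 bp from the nearest gene end but inside the printed Polg promoter.

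The 5 tRNA genes with a peak in both Chd7 replicates also all had a Chd8 peak, and folds follow in the order Chd7 replicate 1, Chd7 replicate 2 and Chd8. The methionine tRNA gene n-TMcat11 (chr3:90475860-90475931) had 4.54, 3.44 and 4.84, and 3.48 in input 3. It lies 270 bp from the start of Ilf2, which encodes an RNA-binding protein, and 20 bp from the Ilf2 promoter printed above. The arginine tRNA gene n-TRtcg5 (chr7:79466419-79466491), inside the Polg promoter printed above, had 4.59, 3.28 and 4.41, and peaks of 3.71, 3.49 and 3.95 in inputs 1, 2 and 3. The isoleucine tRNA gene n-TIaat16 (chr7:28372999-28373093) had 4.15, 3.12 and 4.88, and 4.25 and 4.42 in inputs 1 and 3. It lies 318 bp from an end of Plekhg2 and 87 bp from a Plekhg2 promoter. On chromosome 11 a pair of neighbours, the glutamate gene n-TEctc10 (chr11:58302177-58302248) and the leucine gene n-TLcaa3 (chr11:58302474-58302580), shared peaks of 4.21, 3.38 and 4.76 and had no input peak. Of the 5, these were the ones free of input peaks. The windows of the pair merge into 1 stretch. At this pair, as at n-TIaat16, the peaks of the 2 Chd7 replicates did not overlap each other.

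The highest Chd8 folds at tRNA genes were at a phenylalanine and an asparagine gene beside Ndufs7, a subunit gene of mitochondrial complex I. Both n-TFgaa3 (chr10:80248964-80249036) and n-TNgtt7 (chr10:80249159-80249232) lay under 1 Chd8 peak of 10.7, with input 3 at 3.68 and no Chd7 peak. The glycine gene n-TGccc4 beside Tia1 followed at 7.74, with 3.21 in Chd7 replicate 2 and 4.00 in input 3, and the serine gene n-TSgct7 beside Knl1 at 7.55, with 3.30 in input 3. The asparagine gene n-TNgtt8 (chr11:97702449-97702522), 15 bp from one of the ends of Pcgf2, had 7.10 in Chd8, 4.49 in Chd7 replicate 1 and no input peak. The phenylalanine gene n-TFgaa5 had 6.45 in Chd8 and 3.39 in input 3, and the glycine gene n-TGtcc2 had 6.00 and 3.32. The methionine gene n-TMcat9, 625 bp from an end of H4c8, had 6.21, and the histidine genes n-THgtg3 and n-THgtg5 shared a peak of 6.02, all with no other peak.

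Among the Chd8 genes free of input peaks came next the leucine gene n-TLcaa1, at 5.68 in Chd8 and 3.21 in Chd7 replicate 2. Neighbouring genes for histidine, glycine and glutamate on chromosome 3, n-THgtg8, n-TGtcc7 and n-TEctc13, shared peaks of 5.47 in Chd8 and 4.53 in Chd7 replicate 1. The serine gene n-TSgct5 had 5.45 in Chd8 and 3.54 in Chd7 replicate 2, and the alanine gene n-TAagc13 had 5.35 in Chd8 alone. The arginine UCU gene n-TRtct5 (n-Tr20, chr1:173390329-173390402), known in mice as a tRNA expressed in the nervous system whose loss affects neurons, had a Chd8 peak of 4.68 and no other. The selenocysteine tRNA gene was not analysed here.

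Other genes that RNA polymerase III transcribes were read in the same way. The 52 5S ribosomal RNA genes had no peak in any ChIP library, none in inputs 1 and 3, and 1 in input 2. Of tiles, 5.65%, 9.69% and 4.96% had a peak in inputs 1, 2 and 3. Most of these genes lie in a row on chromosome 8. The treatment of reads aligning to several copies is not stated, and its part here was not tested. Of 10 further RNA polymerase III genes, 7 had a Chd8 peak (20% of gene ends), 5 a peak of Chd7 replicate 2 (7.96% of gene ends), 3 of Chd7 replicate 1 (4.87%) and 4 of input 3 (21.9%). Chd8 folds were 6.49 at Rn7s1 and 3.97 at Rn7s2 (RNA of the signal recognition particle), 6.32 at Rn7sk (which regulates transcription elongation), 6.01 at Rpph1 and 5.35 at Rmrp (RNAs of RNase P and RNase MRP), 5.18 at Bc1 (a neuronal RNA) and 4.07 at Vaultrc5 (a vault RNA). Rny1, Rny3 and Rnu6 had none. Rpph1 and Rmrp had peaks in both Chd7 replicates. Input peaks lay at 4 of the 7: Rmrp had 3.63, 4.13 and 4.53 in inputs 1, 2 and 3, Rn7s1 had 4.58 and 3.71 and Rn7s2 had 3.56 and 3.38 in inputs 1 and 3, and Rpph1 had 3.8 in input 3.

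The genes of the tRNA pathway themselves were read by a peak within 1 kb of a gene end. Over all 21521 protein-coding genes, Chd8 had such a peak at 41.7%, Chd7 replicate 1 at 10.6%, Chd7 replicate 2 at 17.3%, both Chd7 replicates at 5.55% and input 3 at 46.0%. Among 30 genes of the RNA polymerase III machinery, 26 had a Chd8 peak, 5 a peak of Chd7 replicate 1, 13 of Chd7 replicate 2 and 25 of input 3. Polr3c and Polr3k (subunits of the polymerase) and Tbp (the TATA-binding protein of TFIIIB) were among those with a peak in both Chd7 replicates. Among 21 genes of tRNA maturation and export, 20 had a Chd8 peak, 6 one of Chd7 replicate 1, 4 of Chd7 replicate 2 and 14 of input 3. The 2 with both Chd7 replicates were Trnt1, which adds the CCA end, and Xpot, the tRNA exporter. Among 20 aminoacyl-tRNA synthetase genes, which charge tRNAs, 18 had a Chd8 peak (all but Eprs and Gars) and 15 an input 3 peak. Chd7 replicate 1 had a peak at 3 and Chd7 replicate 2 at 5 of them, and Dars and Mars1 had both. Input 3 had peaks at most genes of each list as well, and its part was not tested.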

How the data were processed

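Peaks of 8 ChIP-seq libraries were deposited by the authors as 1 broad peak list per library on mm10. Per the submitters' processing notes, Bowtie2, SAMtools, Picard and MACS were used, and the sources used here give no versions. Per the file headers and columns, the deposited values of a peak are a score (10 times the −log10 q, to within 1), a fold ratio over local background, and −log10 p and −log10 q. The lowest −log10 q was 1.3. Peak numbers in the names run past the listed peaks, so some were removed by a step the sources used here do not state. Depth is unknown.

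Of 430 RefSeq tRNA entries, 22 mitochondrial and 5 scaffold copies were left out. Peaks touching a window by 1 bp were counted (Python 3.11.15, pandas 2.3.3, scipy 1.17.1), with exact Clopper-Pearson 95% intervals and a two-sided exact permutation test over libraries. Interval code was tested on simulated data. Members, gene lists and tests were chosen with earlier results of these data known. Named genes were those with peaks in both Chd7 replicates, the 10 highest Chd8 folds with and without input peaks, the largest clusters and n-Tr20. Alternatives changed the window, peak threshold, input and mock removal, cluster distance and replicates.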

Additional observations from a re-analysis of the deposited data

How the results depend on the processing

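Counts are of tRNA genes with a peak, against 32 in Chd7 replicate 1, 28 in Chd7 replicate 2, 147 in Chd8 and 5 in both Chd7 replicates. With the gene body alone they were 11, 8, 93 and 2. With −log10 q of at least 5 they were 0, 0, 11 and 0, and with a fold of at least 5 they were 0, 0, 47 and 0. No share of gene ends or tiles is given at these thresholds for comparison. Removing peaks that touch the matching input left 89 in Chd8, and with inputs 2 and 3 exchanged it left 130 in Chd8, 16 in Chd7 replicate 2 and 2 in both replicates, so the Chd8 loss depends on which input is assigned. Overlapping windows counted once gave 96 in Chd8. Without tRNA genes near coding gene ends Chd7 replicate 1 had 21 and both replicates 3, and with 1000 bp on both sides both replicates had 8. Leaving out 1 Chd7 replicate leaves the count of the other, 28 to 32. Settings not named here stayed within 1.5 times the count. The Chd8 share of clustered minus single genes was −1.10 percentage points, 3.88 with a cluster distance of 5 kb and −4.91 with 50 kb. In 2 alternatives chosen after seeing the data it was 5.41 without the chromosome 6 cysteine array and 8.00 without genes near coding gene ends, so its sign is not settled. Cysteine stood at 6.38% with overlapping windows counted once, against 7.02%. With ChIP and input of the same number paired by the labels (replicate block), the difference of 6.45 points had an exact permutation p = 0.75 (smallest possible 0.25). The causes were not tested. Peak lists limit every comparison to presence of a peak. Depth is unknown, and this limits comparisons of those shares between libraries as well.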
